A study of Mus musculus with 8 samples.

Results

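The genes described here encode the microtubules, the motors that run along them and the intermediate filaments of neurons. They were chosen by a rule on gene symbols, set with earlier results of these data known, and include neurofilaments, alpha-internexin and peripherin, the alpha, beta and gamma tubulins, tau and other microtubule-associated proteins, stathmins, kinesins and kinesin light chains, dynein and dynactin subunits, tubulin folding cofactors and doublecortin. The rule found 70 genes, measured by 98 probe sets, among the 8251 genes with a probe set of 1 symbol and the 12422 probe sets tested. A probe set is a group of short probes on the array that read 1 transcript. Of the 70 genes 45 had 1 probe set and 25 had several.

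RNA of whole spinal cord from female SJL/J mice was hybridised to Affymetrix MG U74Av2 arrays, 5 from mice with experimental autoimmune encephalomyelitis (EAE, a model of multiple sclerosis) and 3 from control mice. EAE was induced by injecting PLP peptide, a fragment of the myelin proteolipid protein, under the skin. By the methods the peptide came in complete Freund's adjuvant with Mycobacterium tuberculosis, and pertussis toxin was also injected into the abdomen. The mice were taken at an average grade of 2.5. This was on day 14 for EAE arrays 1 and 4 and between days 12 and 14 for array 2. For array 3 it was day 17 and for array 5 day 15.5. Control mice are described by the labels both as injected with vehicle and as healthy, and by the methods as healthy, so that it is not settled whether the difference includes an effect of the injection. They matched the EAE mice in age and sex and were killed on the same days. All mice were 8 to 12 weeks old by the labels. RNA from 2 animals was pooled for every array, so that the spread between arrays is a spread between pools and not between mice. EAE mice also had serum albumin of the mouse injected into a vein 3 hours before death. No such injection is named for controls, and its effect cannot be told apart from that of EAE. Batches 1, 2 and 3 each held 1 EAE and 1 control array, whereas batches 4 and 5 held 1 EAE array each.

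The values are log2 signals as deposited, and a difference of 1 on this scale is a doubling. The difference between EAE and control was fitted with limma across all 12422 probe sets with batch as a term, and p values were adjusted over all of them by the Benjamini-Hochberg method. In this fit the difference is carried by the 3 pairs of batches 1 to 3, and "rose" and "fell" are used for an adjusted p under 0.05. The array medians lay between 6.08 and 6.13. Arrays of 1 group correlated at 0.975 to 0.991 (EAE) and 0.99 to 0.995 (control), and arrays of different groups at 0.931 to 0.951. The 3' minus 5' difference of the Gapdh control probes, a sign of RNA quality, was high on EAE arrays 1 and 4, at 1.46 and 2.07 against 0.46 to 0.78 on the other EAE arrays and 0.53 to 0.97 on the control arrays. By the beta-actin probes EAE array 4 stood above all controls (2.79 against 1.62 to 2.29), whereas array 1 at 2.35 was close to the highest of them and the other EAE arrays lay at 1.11 to 1.83. Neuron markers outside the rule were present on every array (13 genes measured, mean log2 signal 8.18 to 8.46 in EAE and 8.93 to 9.00 in control), as were those of oligodendrocytes (9 genes, 8.29 to 8.69 in EAE and 8.92 to 9.16 in control).

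Microtubules are hollow polymers of alpha and beta tubulin that grow from rings of gamma tubulin. In the axon they form the track for transport: most kinesins carry vesicles and organelles outwards from the cell body, and dynein with its partner dynactin carries cargo back. Tau and its relatives bind and stabilise the polymer, while stathmins bind free tubulin and promote disassembly. Neurofilaments fill the axon and set its calibre, and their light chain is a widely used marker of axonal injury. A separate set of kinesins works on the mitotic spindle of dividing cells.

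In EAE 30 of the 98 probe sets fell and 3 rose. The 30 belonged to 24 genes and the 3 to Tubb6, Kif20a and Kif2c. The share that fell was 30.6%, beside 11.4% of all probe sets tested, and the share that rose was 3.06%, beside 8.26%. At an unadjusted p under 0.05 there were 50 lower (51.0%) and 7 higher (7.14%), beside 20.8% and 12.1% of all probe sets. The log2 difference was negative for 79 of the 98 (80.6%), beside 62.4% of all probe sets, and its median was -0.27, beside -0.05 over all. The median of the 98 was -0.29, -0.20 and -0.21 within batches 1, 2 and 3, and 59 probe sets (60.2%) were lower in EAE in each of the 3 batches and 11 (11.2%) higher in each, beside 34.5% and 19.0% of all probe sets. In 34 probe sets every EAE array lay below every control array (15.1% of all probe sets tested did so), and in 4 every EAE array lay above (10.9% of all). In whole tissue fewer cells of a type and less RNA per cell cannot be told apart.

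Members gave more signal than most of the array, with a median of 7.21 against 6.12 over all probe sets, and bright probe sets fell more often in general. Among the 68 members with a mean of at least 6 on all 8 arrays 27 fell (39.7%) and 1 rose, beside 18.1% and 11.1% of all probe sets this bright. The falls were of moderate size. Those that passed lay between -0.27 and -1.25, and 4 members stood at -1 or below, of which Nefm did not pass the test.

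How many members passed depended on the arrays. Without batch 3, from either its EAE or its control array, 5 of the 30 still fell. Without batch 2 the count was 16, with 13 of them among the 30, and without batch 1 it was 17, with 16 of them among the 30. The share of all probe sets that fell dropped as well, to 1.81% without batch 3, 4.6% without batch 2 and 7.91% without batch 1, while EAE arrays 4 and 5 do not move the fit. Tubb6, Nefh, Stmn4 and 2 probe sets of tau passed without any 1 batch, and every other call was lost without at least 1 of the 3. With no moderation of the variances no member passed in either direction, with 27 at an unadjusted p under 0.05 and 1 probe set of all 12422 passing. Without the batch term 26 fell, 20 of them among the 30, beside 10.3% of all probe sets.

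**Figure D1:**
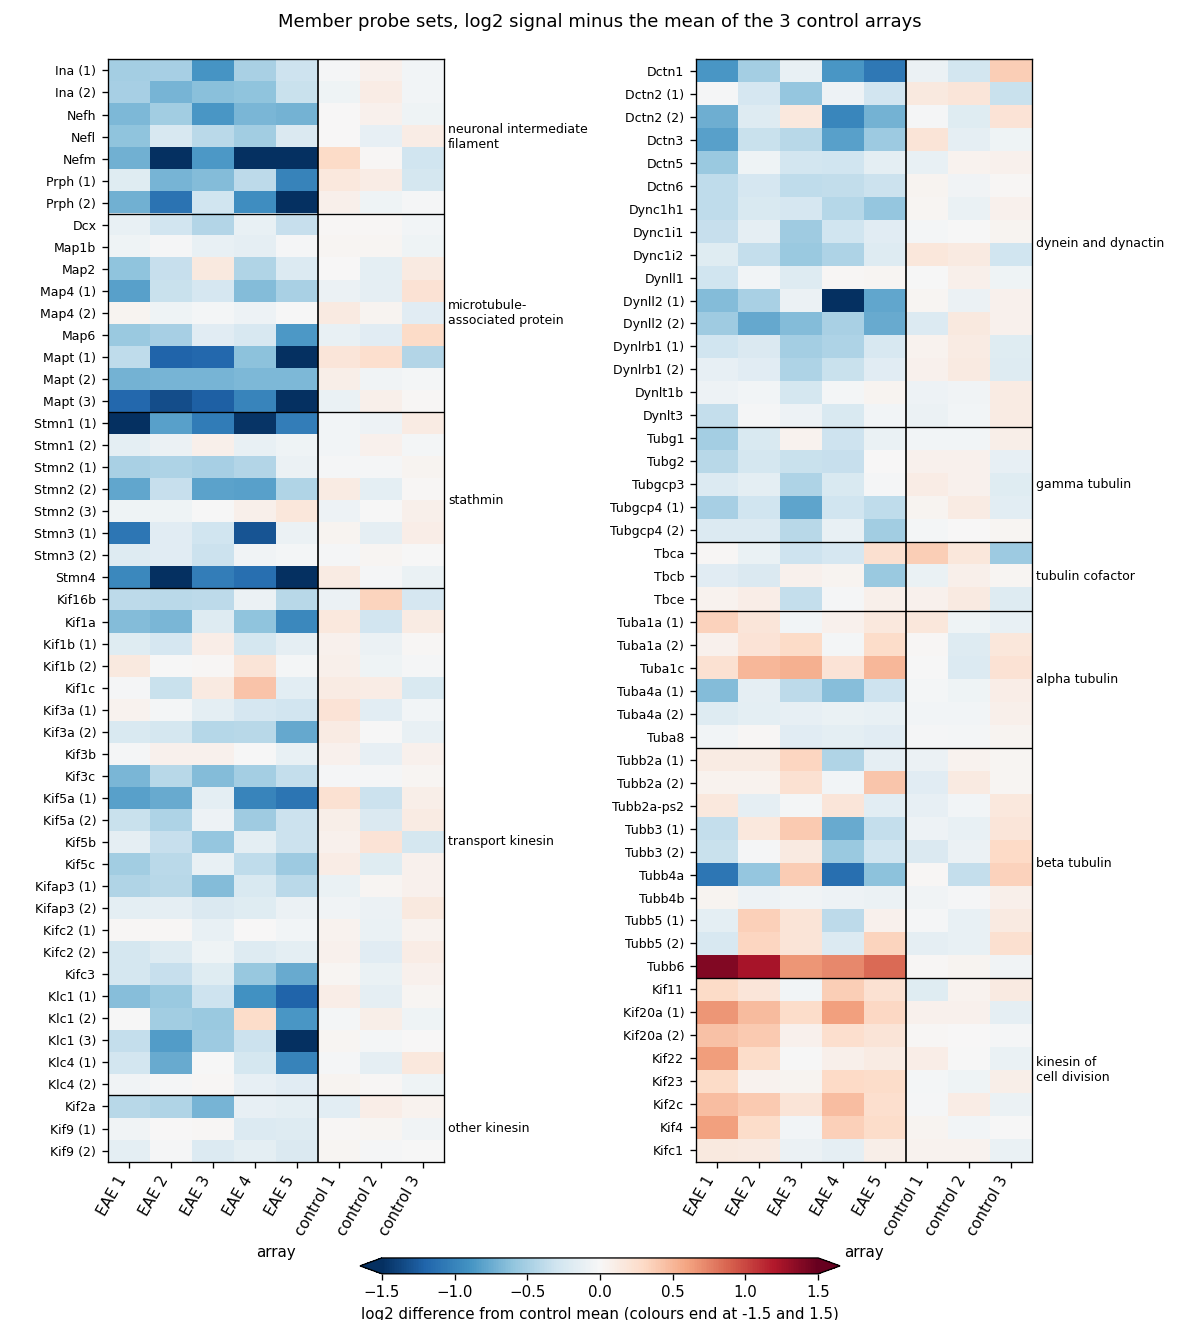
Heat map of the 98 probe sets (rows, grouped by role) on the 5 EAE and 3 control arrays (columns). Colour is the log2 signal minus the mean of the control arrays. The rows of neuronal filaments, microtubule-associated proteins and stathmins are mostly lower on all 5 EAE arrays, whereas the tubulin rows are mixed and the rows of division kinesins are mostly higher.

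The roles differed in how their members lay. Neuronal intermediate filaments had the lowest median (-0.63, with 5 of 7 probe sets that fell), followed by stathmins (-0.50, 4 of 8), microtubule-associated proteins (-0.41, 5 of 9), dynein and dynactin (-0.32, 5 of 16), kinesins of cargo transport (-0.31, 7 of 23) and gamma tubulin with its complex (-0.27, 3 of 5). The medians of kinesins outside these classes (-0.12, 1 of 3) and of the folding cofactors (-0.11, 0 of 3) were nearer that of all probe sets. Alpha tubulins (0.05, 0 of 6), beta tubulins (0.08, 0 of 10) and division kinesins (0.29, 0 of 8) had medians above 0. No difference between roles was tested.

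**Figure D2:**
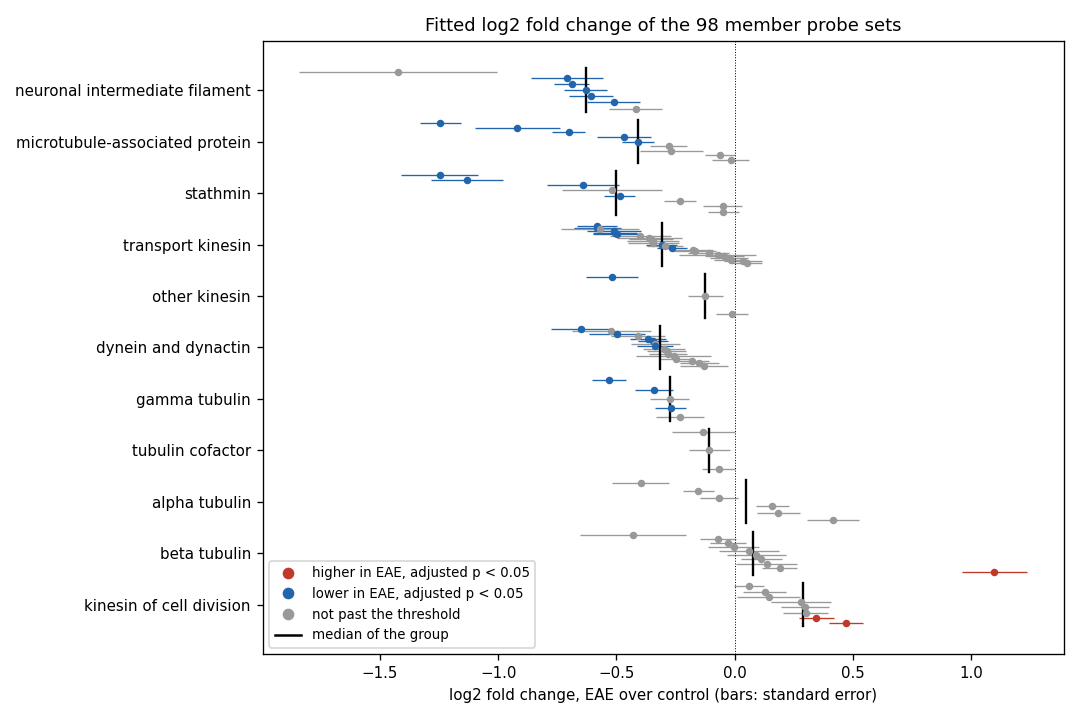
Log2 difference, EAE minus control, of each of the 98 probe sets (points) by role, from the fit with batch as a term. Horizontal bars are standard errors, vertical lines the median of a role, and red and blue points passed an adjusted p of 0.05 as higher or lower in EAE, against grey ones that did not. Neuronal filaments, stathmins and microtubule-associated proteins lie below 0 throughout, and the 3 members that rose belong to the beta tubulins and the division kinesins.

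All 5 neuronal filament genes had lower values in EAE, and Nefh, Ina and Prph passed the test. Nefh, the heavy neurofilament chain, gave 10.29, 10.44, 10.08, 10.27 and 10.25 on the 5 EAE arrays and 10.96, 11.03 and 10.89 on the control arrays. The groups did not overlap, and all 5 EAE pools were within 0.36 of each other. Nefh fell by 0.69 on the log2 scale (SE 0.0741, adjusted p 0.00547), to 0.62 of control, and the fall passed without any 1 batch. Its exact permutation p over the 56 regroupings of the arrays, which take no account of batch, was 0.0179, the smallest they allow.

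Ina, alpha-internexin, forms filaments together with the neurofilament chains. The first probe set (94334_f_at) gave 10.56, 10.58, 10.20, 10.59 and 10.77 in EAE and 11.06, 11.14 and 11.03 in control. The second (94335_r_at) gave 9.88, 9.68, 9.76, 9.77 and 10.04 in EAE and 10.31, 10.49 and 10.34 in control. Neither overlapped between the groups. By the array's design the suffixes f and r mark probes shared by a gene family or chosen under relaxed rules. Whether these probe sets read Ina independently was not examined. The falls were alike, -0.63 (SE 0.0904, adjusted p 0.0119) and -0.61 (SE 0.0933, adjusted p 0.014), and neither passed without batch 3, nor the second without batch 2.

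Peripherin (Prph) is a filament of motor, sensory and autonomic neurons with axons in peripheral nerves. Its brighter probe set (161482_f_at) gave 7.34, 6.83, 6.88, 7.14 and 6.52 in EAE and 7.68, 7.64 and 7.26 in control, where EAE array 1 overlapped control array 3. The dimmer one (104751_at) gave 5.35, 4.96, 5.76, 5.14 and 4.56 in EAE and 6.14, 6.00 and 6.05 in control, without overlap. EAE array 5 was lowest with both, and the brighter one also carries the suffix f. They fell by 0.51 (SE 0.113, adjusted p 0.0367) and 0.71 (SE 0.152, adjusted p 0.0343). The first did not pass without batch 2 or 3, and the second not without batch 1 or 2.

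Nefm, the medium chain, had the most negative value of all members and did not pass. It gave 9.63, 7.65, 9.49, 8.53 and 6.05 in EAE and 10.63, 10.37 and 10.05 in control. The EAE arrays spanned 3.58 log2 units, with an SD of 1.48 against 0.29 in control, and yet none reached the lowest control. The difference was -1.42 (SE 0.418, adjusted p 0.0775), and without batch 2, which held the widest gap (-2.71), it was -0.78 (adjusted p 0.0462). Nefl, the light chain, gave 7.80, 8.15, 7.99, 7.88 and 8.18 in EAE and 8.41, 8.28 and 8.51 in control. The groups again did not overlap, at a difference of -0.42 (SE 0.112, adjusted p 0.062). Without the batch term the adjusted p of Nefl was 0.0278 and that of Nefm 0.0902.

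Tau (Mapt), which binds along axonal microtubules, fell with all 3 of its probe sets, but they did not order the EAE arrays alike. The probe set 102743_at gave 9.32, 9.34, 9.34, 9.36 and 9.36 in EAE and 10.12, 9.98 and 10.00 in control. The second, 102742_g_at, gave 7.90, 7.75, 7.85, 8.08 and 6.78 in EAE and 8.98, 9.15 and 9.10 in control. The third, 102431_at, gave 9.99, 9.17, 9.19, 9.76 and 8.49 in EAE and 10.55, 10.62 and 9.93 in control. The first was nearly constant over the EAE pools, whereas the others were lowest on EAE array 5, and only the third overlapped between the groups.

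Tau fell by 0.70 with 102743_at (SE 0.0702, adjusted p 0.0045) and fell by 1.245 with 102742_g_at (SE 0.0862, adjusted p 0.0015), and both falls passed without any 1 batch. By 102742_g_at it stood at 0.422 of control. With 102431_at it fell by 0.92 (SE 0.181, adjusted p 0.0272), and this fall did not pass without batch 3 (adjusted p 0.118) or without the batch term (0.0549). Probe sets of 1 gene can read different parts or splice forms of its transcript, and which parts these read was not examined.

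**Figure D3:**
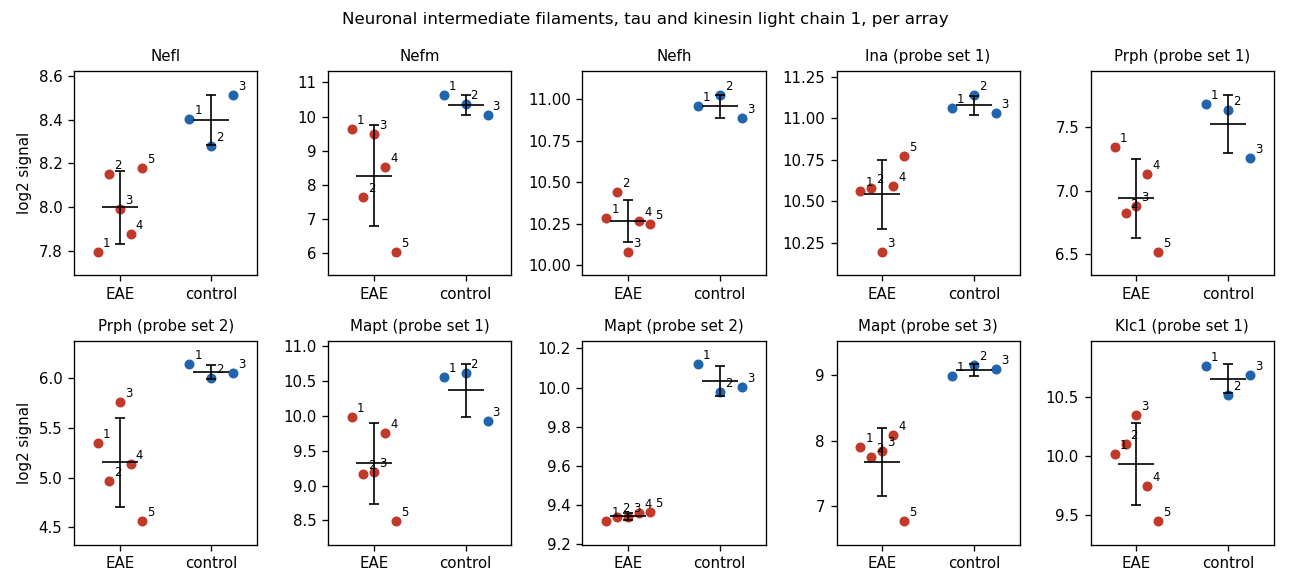
Log2 signal of neuronal filament genes, tau and Klc1 on the 5 EAE arrays (red, left) and 3 control arrays (blue, right), with array numbers beside the points, 1 panel with its own axis for each probe set, and probe sets of a gene numbered from the brightest. Bars are the mean and SD of a group. Nefm spans 6.05 to 9.63 in EAE against 10.05 to 10.63 in control, while tau by 102743_at (Mapt, probe set 2) spans 9.32 to 9.36 in EAE against 9.98 to 10.12 in control.

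Among the other microtubule-associated proteins Map4 and Map6 fell. Map4, which is broadly expressed, fell by 0.47 with its brighter probe set (SE 0.115, adjusted p 0.0488) and stood at -0.02 with a dim one (adjusted p 0.92). Map6, which protects microtubules from cold, fell by 0.41 (SE 0.0674, adjusted p 0.0171), with 6.46, 6.51, 6.85, 6.78 and 6.16 in EAE and 6.90, 6.84 and 7.30 in control. EAE array 3 just overlapped control array 2. Doublecortin (Dcx), a protein of young migrating neurons, was below every control on all EAE arrays at -0.28 without passing (adjusted p 0.0721). Map2 of dendrites and Map1b of growing axons did not pass, at -0.27 (95% interval -0.61 to 0.07) and -0.06 (-0.22 to 0.10). Both probe sets were dim, with a mean over all arrays of 5.45 for Map2 and 5.63 for Map1b. The median over all probe sets was 6.12. In such dim probe sets a fall may not show.

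Of the 4 stathmin genes Stmn1, Stmn2 and Stmn4 fell. Stmn4 gave 8.36, 7.59, 8.29, 8.19 and 7.20 in EAE and 9.44, 9.30 and 9.23 in control. All EAE arrays were at least 0.87 below the lowest control, with arrays 2 and 5 the lowest. Stmn4 fell by 1.25 (SE 0.163, adjusted p 0.0092), to 0.421 of control, and passed without any 1 batch.

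Stmn1, also known as oncoprotein 18 and present in dividing cells as well as neurons, gave 9.41, 10.14, 9.91, 9.48 and 9.92 in EAE and 10.91, 10.87 and 11.07 in control. Here EAE arrays 1 and 4 were lowest, the pair with the high 3' minus 5' difference of Gapdh, and the groups were far apart. It fell by 1.13 (SE 0.153, adjusted p 0.0101), to 0.456 of control, and in the fit without the batch term and without EAE arrays 1 and 4 it was still 0.96 lower (adjusted p 0.000689). A second, dim probe set of Stmn1 gave 4.57 to 4.79 in EAE and 4.68 to 4.78 in control and did not pass (-0.05, adjusted p 0.738).

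Stmn2 (SCG10), a neuronal stathmin of growing and regenerating axons, fell with 2 of its 3 probe sets. With 95670_at it gave 10.13, 10.15, 10.11, 10.18 and 10.53 in EAE and 10.60, 10.59 and 10.65 in control. With 95669_g_at it gave 9.70, 10.13, 9.67, 9.67 and 10.03 in EAE and 10.60, 10.33 and 10.50 in control. In both the groups were apart, and EAE array 5, the lowest for Nefm and for 2 of the tau probe sets, was here the highest or next to it. The falls were 0.49 (SE 0.0651, adjusted p 0.00989) and 0.64 (SE 0.152, adjusted p 0.0443), and the dimmest probe set (95668_at) stood at -0.05 (adjusted p 0.691). Stmn3 did not pass with either probe set (-0.52, 95% interval -1.06 to 0.02, and -0.23, -0.40 to -0.06), and its brighter one was lowest on EAE arrays 4 and 1 at 8.09 and 8.31 against 9.09 to 9.30 on the other EAE arrays and 9.26 to 9.49 in control.

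Of the 16 alpha and beta tubulin probe sets none fell and 1 rose. Most carry the suffix f, i or r of the array's design, which marks probes shared by a gene family, fewer in number or chosen under relaxed rules, so that a value may hold several tubulin genes. Tuba1a, a main alpha tubulin of neurons, was among the brightest members at 12.29 to 12.68 in EAE and 12.23 to 12.51 in control (0.16, 95% interval -0.02 to 0.34). Tuba1c, broadly expressed, was 0.42 higher (adjusted p 0.0586), with 11.59, 11.85, 11.89, 11.56 and 11.85 in EAE and 11.35, 11.15 and 11.58 in control.

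Tuba4a was the alpha tubulin with the lowest value, -0.40 (95% interval -0.71 to -0.09, adjusted p 0.0862), and its EAE arrays at 8.09 to 8.61 lay below all controls at 8.68 to 8.84. Tuba8 stood at -0.07 (-0.27 to 0.14). In beta tubulins Tubb2a, Tubb4b, Tubb5 and the pseudogene Tubb2a-ps2 lay between -0.03 and 0.19 with no call. Tubb4a, the beta tubulin that oligodendrocytes make in quantity, spanned 10.06 to 11.57 in EAE and 10.83 to 11.53 in control (-0.43, 95% interval -1.004 to 0.15), and was lowest on EAE arrays 4 and 1.

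Tubb3, the beta tubulin used to mark neurons, did not pass with either probe set. Its brighter probe set (160462_f_at) gave 9.43, 9.95, 10.18, 9.04 and 9.43 in EAE and 9.72, 9.68 and 9.97 in control. The other (161612_f_at) gave 8.58, 8.89, 9.04, 8.35 and 8.60 in EAE and 8.69, 8.82 and 9.21 in control. The groups overlapped in both, and EAE array 4 was the lowest. The differences were 0.06 (SE 0.127, 95% interval -0.26 to 0.39) and -0.07 (SE 0.0775, -0.27 to 0.13), and the sign of the first turned to -0.19 without the batch term. Both are family probe sets, and the share of signal that comes from other beta tubulins was not tested.

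Tubb6, a beta tubulin found mainly outside neurons, was the member that rose most. It gave 8.61, 8.46, 7.89, 7.94 and 8.08 in EAE and 7.24, 7.26 and 7.17 in control. Every EAE array was at least 0.63 above the highest control. It rose by 1.10 (SE 0.139, adjusted p 0.00845), 2.14-fold, passed without any 1 batch, and stood at 0.92 (adjusted p 0.00619) without the batch term and without EAE arrays 1 and 4. Its probe set too is of the family kind.

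**Figure D4:**
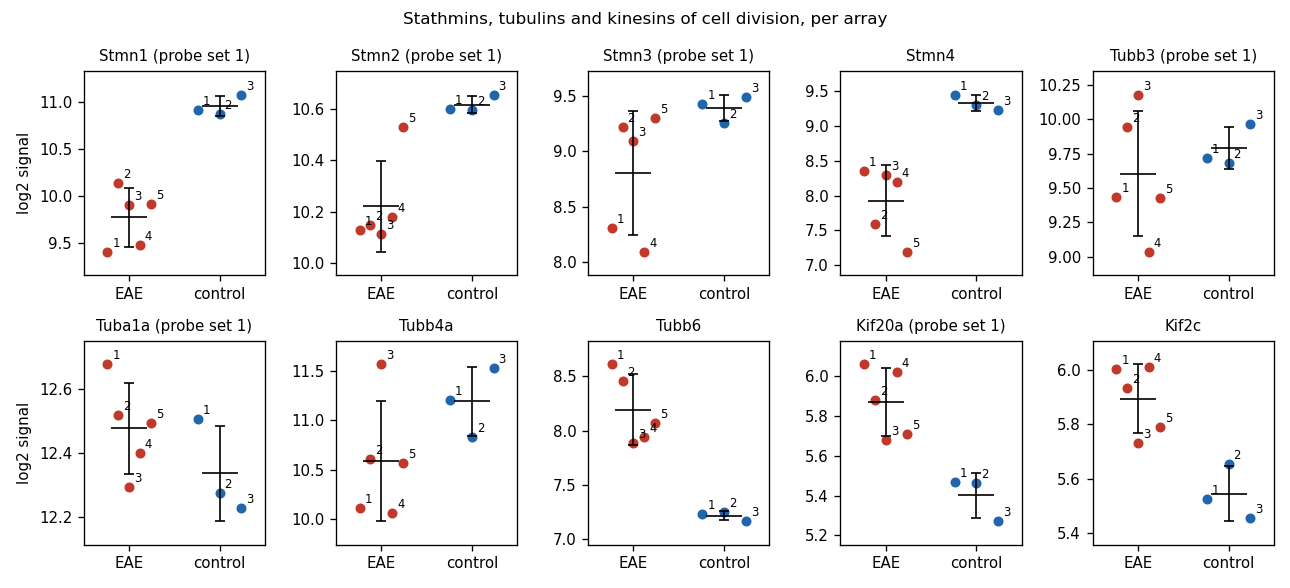
Log2 signal of stathmins, tubulins and 2 division kinesins on the 5 EAE arrays (red, left) and 3 control arrays (blue, right), with array numbers beside the points, 1 panel with its own axis for each gene (its brightest probe set). Bars are the mean and SD of a group. Stmn4 and Stmn1 lie lower on every EAE array, Tubb6 higher on every EAE array (7.89 to 8.61 against 7.17 to 7.26), and Tubb3 overlaps.

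Gamma tubulin starts new microtubules, and 3 of the 5 probe sets of gamma tubulin and its ring complex fell. Tubgcp4, a subunit of the gamma tubulin ring, gave 6.61, 6.81, 6.32, 6.81 and 6.73 in EAE and 7.15, 7.23 and 6.95 in control, without overlap. It fell by 0.53 (SE 0.0723, adjusted p 0.0102), while its second probe set stood at -0.27 (adjusted p 0.0831). Tubg2 fell by 0.34 (adjusted p 0.0421) and Tubgcp3 by 0.27 (adjusted p 0.0471), and both overlapped between the groups. Tubg1 did not pass (-0.23, 95% interval -0.49 to 0.03). The folding cofactors Tbca, Tbcb and Tbce, which assemble the tubulin dimer, lay between -0.13 and -0.07 with no call.

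Among the 23 probe sets of transport kinesins and their light chains 7 fell, from 6 genes. Kif3c, a kinesin-2 motor of neurons, varied little between pools. It gave 7.30, 7.57, 7.34, 7.48 and 7.63 in EAE and 7.97, 7.97 and 8.01 in control. It fell by 0.58 (SE 0.0843, adjusted p 0.0122) and did not overlap. Kifap3, the adaptor of the kinesin-2 motor, fell by 0.51 (SE 0.0931, adjusted p 0.0227), with 8.39 to 8.82 in EAE and 8.95 to 9.11 in control. A second, dimmer probe set of Kifap3 (161604_r_at) did not pass (-0.17, adjusted p 0.27), though its groups did not overlap. Of the other kinesin-2 motor chains Kif3a fell by 0.31 with 1 of 2 dim probe sets (adjusted p 0.0325), and Kif3b did not pass (0.04, 95% interval -0.17 to 0.24).

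Klc1, the light chain that couples kinesin-1 to cargo, fell with 2 of 3 probe sets. With 93565_at it gave 10.02, 10.10, 10.35, 9.75 and 9.45 in EAE and 10.76, 10.52 and 10.69 in control, a fall of 0.50 (SE 0.0998, adjusted p 0.0282). With 97984_i_at it fell by 0.58 (SE 0.0991, adjusted p 0.019), where EAE array 5 was at 5.87 against 6.84 to 7.35 on the other EAE arrays and 7.64 to 7.71 in control. The kinesin-1 heavy chains did not pass: neuronal Kif5a stood at -0.57 (adjusted p 0.0757) and -0.29 (0.0564), Kif5b at -0.35 (0.0575) and neuronal Kif5c at -0.34 (0.0935). Their 95% intervals all lay below 0, the widest being -0.995 to -0.15 for Kif5a.

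Kif1a, which carries synaptic vesicle precursors, gave 5.73, 5.69, 6.19, 5.78 and 5.41 in EAE and 6.54, 6.10 and 6.50 in control. It fell by 0.51 (SE 0.114, adjusted p 0.0376), with EAE array 3 above control array 2. The broadly expressed Kif1b and Kif1c did not pass (-0.11 and 0.05 for the probe sets of Kif1b and -0.07 for Kif1c). Kifc3, a motor that runs towards the minus end, fell by 0.27 (adjusted p 0.0448). Kif2a, which shortens microtubules rather than carrying cargo, fell by 0.52 (SE 0.109, adjusted p 0.0324).

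The 16 dynein and dynactin probe sets all had negative differences, between -0.13 and -0.65, and 5 fell, 1 each from Dctn1, Dctn6, Dync1i2, Dynll2 and Dynlrb1. Dynll2, a light chain of dynein and of other complexes, gave 8.07, 7.83, 7.95, 8.12 and 7.85 with 161960_f_at in EAE and 8.39, 8.74 and 8.67 in control. It fell by 0.65 (SE 0.126, adjusted p 0.0261) and did not pass without batch 2 or batch 3. Its brighter probe set (101929_at) gave 9.93, 10.09, 10.49, 8.97 and 9.80 in EAE and 10.60, 10.49 and 10.63 in control, at -0.41 (SE 0.115, adjusted p 0.0697). There EAE array 4 was lowest.

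Dctn1, the large dynactin subunit that binds dynein, gave 8.02, 8.37, 8.78, 8.01 and 7.82 in EAE and 8.80, 8.61 and 9.26 in control. It fell by 0.50 (SE 0.117, adjusted p 0.0434) with overlap between EAE array 3 and control array 2. Dctn6, a small subunit at the pointed end of dynactin, fell by 0.34 (SE 0.0752, adjusted p 0.0382) and was tightly grouped, with 7.16 to 7.28 in EAE and 7.48 to 7.57 in control. Dynlrb1, a light chain, fell by 0.34 with 94862_i_at (SE 0.0626, adjusted p 0.0223), by nearly the same amount in each batch (-0.35, -0.35 and -0.33). With its other probe set (94863_r_at) it stood at -0.25 without passing (adjusted p 0.0594), and the groups overlapped. Dync1i2, an intermediate chain, fell by 0.37 (adjusted p 0.0314). The dynein heavy chain Dync1h1 was below every control on all EAE arrays without passing (-0.29, 95% interval -0.50 to -0.08, adjusted p 0.071).

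The 8 probe sets of the 7 kinesins of cell division all had positive differences, 0.06 to 0.47, and Kif20a and Kif2c rose. Kif20a, which acts in the separation of daughter cells, gave 6.06, 5.88, 5.68, 6.02 and 5.71 in EAE and 5.47, 5.46 and 5.27 in control with 161856_f_at, a rise of 0.47 (SE 0.0728, adjusted p 0.0143). Its dimmer probe set stood at 0.30 (adjusted p 0.0905), also without overlap.

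Kif2c, which frees wrongly attached chromosomes, gave 6.01, 5.94, 5.73, 6.01 and 5.79 in EAE and 5.53, 5.65 and 5.46 in control. It rose by 0.35 (SE 0.0753, adjusted p 0.035) and lost the call when batch 1, 2 or 3 was left out (adjusted p 0.101, 0.103 and 0.124). The remaining genes Kif11, Kif22, Kif23, Kif4 and Kifc1 had no call, from 0.30 for Kif22 (95% interval 0.04 to 0.56) to 0.06 for Kifc1 (-0.10 to 0.23). EAE array 3, the latest in the disease, was nearest to control, with a mean over the 8 probe sets 0.05 above the control mean against 0.22 to 0.44 on the other EAE arrays.

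Promoters of genes used in late cell division often carry the cell cycle homology region, TTTGAA, downstream of a CCAAT box. Of the 70 genes 51 had a promoter in the RefSeq table of assembly GRCm38.p6, from 250 bases before to 50 after the start. The letters TTTGAA on either strand stood in 6 of 6 promoters of division kinesins, beside 8 of 51 over all members (15.7%) and 18.1% of the 27025 promoters in the table. Kif20a, which rose, was not among the 51, and of the 6 genes only Kif2c rose. The letters CCAAT on either strand stood in 5 of those 6 (83.3%), beside 21 of 51 members (41.2%) and 37.9% of all. In the printed stretches the matches do not overlap. A match of letters in such a window describes the sequence and shows no binding. The stretch from 110 bases before to 30 after the start is printed for these 6 genes, 5′ to 3′ on the gene's strand, with matches to both motifs on either strand in capitals, followed by Ina and Prph, the neuronal filament genes with an entry and without either motif in the 300 bases:
Kif2c (chr4:117178743-117178882, minus strand): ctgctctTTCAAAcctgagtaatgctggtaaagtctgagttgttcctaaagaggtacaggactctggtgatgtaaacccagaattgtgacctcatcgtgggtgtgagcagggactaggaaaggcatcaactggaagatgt
Kif11 (chr19:37376272-37376411, plus strand): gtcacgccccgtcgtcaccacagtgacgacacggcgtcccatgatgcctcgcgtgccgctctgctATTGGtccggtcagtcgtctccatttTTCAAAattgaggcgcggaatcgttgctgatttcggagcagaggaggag
Kif22 (chr7:127042391-127042530, minus strand): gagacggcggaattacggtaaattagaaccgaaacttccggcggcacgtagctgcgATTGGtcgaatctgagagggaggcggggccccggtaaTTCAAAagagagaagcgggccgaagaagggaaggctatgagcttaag
Kif23 (chr9:61946770-61946909, minus strand): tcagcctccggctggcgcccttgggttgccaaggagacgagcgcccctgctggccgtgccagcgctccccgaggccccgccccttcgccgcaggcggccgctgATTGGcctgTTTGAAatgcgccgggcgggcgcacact
Kif4 (chrX:100625955-100626094, plus strand): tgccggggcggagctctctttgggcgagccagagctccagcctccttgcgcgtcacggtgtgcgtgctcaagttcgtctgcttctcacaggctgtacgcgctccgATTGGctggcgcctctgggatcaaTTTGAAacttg
Kifc1 (chr17:33890604-33890743, minus strand): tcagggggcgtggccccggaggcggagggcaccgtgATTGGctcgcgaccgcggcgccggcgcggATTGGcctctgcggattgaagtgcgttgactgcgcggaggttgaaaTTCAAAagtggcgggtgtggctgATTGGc
Ina (chr19:47014571-47014710, plus strand): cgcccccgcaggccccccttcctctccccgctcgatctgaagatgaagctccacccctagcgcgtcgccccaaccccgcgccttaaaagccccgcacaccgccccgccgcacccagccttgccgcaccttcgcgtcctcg
Prph (chr15:99055064-99055203, plus strand): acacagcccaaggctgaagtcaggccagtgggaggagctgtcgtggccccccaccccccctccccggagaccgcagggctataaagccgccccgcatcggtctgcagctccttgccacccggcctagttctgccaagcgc

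In 5 of the 6 division kinesins, all but Kif2c, an ATTGG stands upstream of the TTTGAA or TTCAAA nearest the start. Counted from the start, its letters begin at -19 in Kif11, -17 in Kif22, 3 in Kif23, 20 in Kif4 and 2 in Kifc1. In Kif2c they begin at -103. A GC box, GGGCGG on either strand, stood in 9 of 11 promoters of transport kinesins and in both filament promoters, beside 62.7% of members and 35.9% of all promoters.

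The 5 EAE pools did not order the members in 1 way. EAE array 5 was the lowest of the 5 in 12 of the 30 probe sets that fell (40.0%), beside 20.0% of all probe sets tested, and arrays 2 and 5 were together the lowest pair in 8 of the 30 (26.7%), beside 9.88% of all. Stmn4, Prph (both probe sets) and tau by 102742_g_at and by 102431_at had this order, as did Nefm, which did not pass. Arrays 1 and 4 were the lowest pair in 20 of the 98 members (20.4%) and in 3 of the 30 (10.0%), beside 14.7% of all, with Stmn1, Stmn3 and Tubb4a among them. The SD was greater in EAE than in control in 75 of the 98 (76.5%), beside 66.6% of all probe sets. In the fit without the batch term 24 members fell without EAE array 5, beside 9.27% of all probe sets. Without arrays 1 and 4 it was 18, 14 of them among the 30, beside 8.41% of all probe sets. The part of RNA quality in these orders was not tested.

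**Figure D5:**
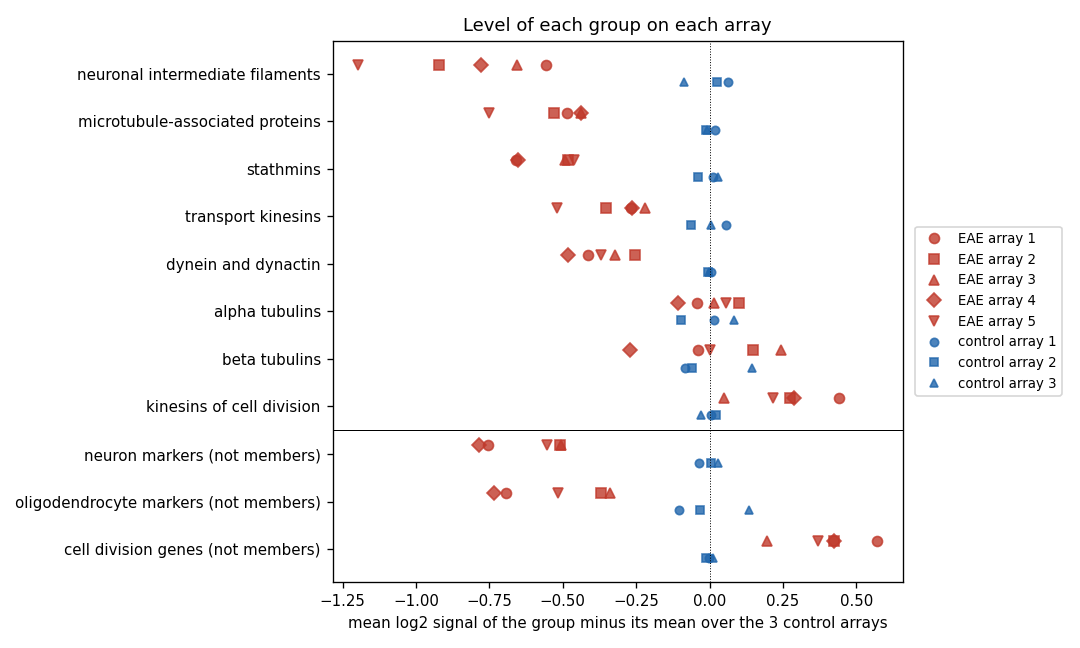
Mean log2 signal of 8 roles on every EAE array (red) and control array (blue), minus the mean of the control arrays, with 3 lists outside the rule below the line. The neuronal filaments lie 0.56 to 1.20 below control in EAE, the stathmins 0.46 to 0.66 below and the division kinesins 0.05 to 0.44 above.

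The mean of the 7 neuronal filament probe sets was lower than the control mean by 0.56, 0.92, 0.66, 0.78 and 1.20 on EAE arrays 1 to 5. The 8 stathmin probe sets were lower by 0.66, 0.48, 0.49, 0.65 and 0.46. The 23 of transport kinesins were lower by 0.27, 0.35, 0.22, 0.26 and 0.52. Beta tubulins lay on both sides, at -0.04, 0.15, 0.24, -0.27 and 0.00.

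Genes that work beside the members but lie outside the rule were read from a list of 27 measured microtubule regulators. Of these 6 fell (22.2%) and 1 rose (3.7%), with a median of -0.14. By the brightest probe set 13.5% of all genes fell and 9.19% rose, with a median of -0.05. Of all probe sets with a mean of at least 6, 18.1% fell. Mapre2, a protein of growing microtubule ends, fell by 0.89 (SE 0.0829, adjusted p 0.00372). Pafah1b1 (Lis1) and Ndel1, which regulate dynein, fell by 0.40 and 0.37, whereas Nde1, the close relative of Ndel1 known from dividing progenitor cells, rose by 0.65 (adjusted p 0.0356). Mapk8ip3, a kinesin adaptor, the severing enzyme Spast and the kinase Mark1 fell by 0.44, 0.50 and 0.42. None of the 7 subunits of the tubulin-folding chaperonin that were measured in its Cct series passed, the lowest being Cct7 at -0.37 (adjusted p 0.0837).

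In the skeleton beneath the axonal membrane 3 of 7 measured genes fell (42.9%), beside 13.5% of all genes by the brightest probe set (9.19% rose). The ankyrins Ank1 and Ank3 fell by 0.67 (SE 0.0846, adjusted p 0.00842) and 0.66 (SE 0.0697, adjusted p 0.0051). The adducin Add1 fell by 0.49 (adjusted p 0.0214). Ank3 anchors channels at the axon's initial segment and nodes. Of the 10 intermediate filaments of glia and other cells none fell. Several were dim, among them Vim at 5.24 in EAE and 5.23 in control, beside a median of 6.12 over all probe sets. In such dim probe sets a fall may not show. Gfap of astrocytes rose by 0.74 (SE 0.0656, adjusted p 0.00326) and Nes, a filament of progenitors and reactive astrocytes, by 0.95 (SE 0.118, adjusted p 0.00815).

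Markers of cell types moved beside the members. For comparison, 13.5% of all genes fell and 9.19% rose by the brightest probe set. Of 13 neuron markers outside the rule 9 fell and none rose, with a median of -0.51, and their mean was 0.51 to 0.79 below control on the EAE arrays, most on arrays 4 and 1. Elavl3 fell by 1.16 (adjusted p 0.00437) and Snap25 by 0.47 (adjusted p 0.0117). Of 9 oligodendrocyte markers 4 fell (median -0.32). Macrophage and microglia markers rose in 14 of 15 (median 2.34), with a mean of 8.05 to 8.60 in EAE and 5.94 to 6.09 in control. Of 22 cell division genes outside the rule 11 rose and none fell (median 0.41), and their mean was above control by 0.57, 0.42, 0.20, 0.43 and 0.37 on EAE arrays 1 to 5, lowest on array 3 as for the division kinesins. T cell markers rose in 5 of 11 and fell in 1, Thy1, which neurons also carry. Of 8 astrocyte markers Gfap rose and S100b fell. Of 4 Schwann cell markers Egr2 rose and 2 fell, S100b, which is also in the astrocyte list, and Mal, which is also 1 of the 4 oligodendrocyte markers that fell. The part of a changed mix of cells in the members' differences was not tested.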

How the data were processed

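Total RNA of whole spinal cord was hybridised to 8 one-colour arrays, 5 EAE and 3 control, each with a pool of 2 mice. The deposited log2 values were made by the authors in Partek with RMA, quantile normalization and an adjustment for GC content (versions not given in the sources used here). They were not normalized again. Affymetrix's 66 control probe sets were dropped, 12422 probe sets were tested, and 0 value columns were left unused. Genes were named from the platform annotation: 10833 probe sets had 1 symbol, 396 several and 1193 none. All 98 members matched the GRCm38.p6 gene table.

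The limma package (3.58.1, under R 4.3.3) was fitted by lmFit and eBayes, two-sided, with treatment and batch as terms, as the methods' analysis of variance does, with 2 residual and 3.05 prior degrees of freedom. Batch equals the replicate number in the labels and pairs the arrays of batches 1 to 3. The deviations of the paired arrays from their group means correlated at 0.302, -0.231 and 0.412. Single values had an exact permutation test, which regroups all arrays without regard to batch and so does not use the pairing. For lists the brightest probe set stood for a gene, and lists have counts and medians with no test. Named in full are the neuronal filaments, Mapt, Tubb3 and up to 10 members with the largest rise and fall among those that passed. Members, lists and tests were chosen with earlier results of these data known. The fit was tested on simulated data with 200 changed probe sets. Motifs were sought in RefSeq promoters. Figures were drawn with matplotlib 3.10.9.

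Replicates are pools of the labels, and p values measure only the spread between these pools. Their number limits the precision. Also run were fits with the batch term left out or random, unmoderated variances, an intensity trend, median centring, further quantile normalization, brighter probe sets only, a stricter threshold, 1 probe set for each gene and the omission of single arrays.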

Additional observations from a re-analysis of the deposited data

Results flagged for a closer look

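Among the 98 sets of 5 EAE arrays, 5 held an array far from the other 4. In these the gap to the nearest other array was 0.735 to 0.937 of the range. Chance alone nominally gives about 1 in 20, a rate that was not computed from these data. For Mapt with 102742_g_at EAE array 5 stood at 6.777 against 7.746 to 8.084 on the other EAE arrays and 8.98 to 9.152 in control. For Stmn2 with 95670_at array 5 stood at 10.53 against 10.11 to 10.18, nearer the controls at 10.59 to 10.66. Kif16b, a kinesin of endosomes, was at 6.242 on EAE array 4 against 5.915 to 5.935 on the others and 6.08 to 6.667 in control. The folding cofactor Tbce was at 6.694 on EAE array 3 against 7.028 to 7.149, with controls at 6.855 to 7.181. Tubb4b was at 6.126 on EAE array 1 against 6.002 to 6.033, with controls at 6.026 to 6.16.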

How the results depend on the processing

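The main counts were 3 members higher and 30 lower, with a median of -0.27. With no replicate block (no batch term) they were 3 and 26, with 20 of the 30 lower ones shared, and with batch as a random block 5 and 34. With no moderation of the variances both counts were 0. With brighter probe sets only the median was -0.34. At an adjusted p under 0.01 there was 1 higher and 5 lower. An intensity trend gave 4 and 27, median centring 3 and 35, further quantile normalization 3 and 26, and 1 probe set for each gene 3 and 23. With each array left out in turn the number lower ranged from 5 to 30 and the number higher from 1 to 3, and the median from -0.28 to -0.22. The share of all probe sets that were lower ranged from 1.81% to 11.4%. As alternatives chosen after seeing the data, no batch term without EAE arrays 1 and 4 gave 18 lower, and without EAE array 5 it gave 24. Of all probe sets 8.41% and 9.27% were lower in these 2 fits. Tubb3 by 160462_f_at, at 0.06, changed sign to -0.19 with no replicate block, -0.13 with a random block, -0.037 without array 2 and -0.013 without array 3 of either group (range -0.037 to 0.24 over all arrays left out), and -0.14 with no block and no EAE array 5, and it passed in none of these. The other probe sets among the 19 followed here, those named in full, kept their direction under every alternative run. Members outside these 19 were not all as stable: Kif1c, at -0.07, stood at 0.01 without the batch term. Apart from the fewer arrays of those left out, the cause of these shifts was not tested. With 3 pairs of pools and 2 residual degrees of freedom the calls lean on the variance shared across probe sets, and dim or family probe sets give values that may not belong to 1 gene.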
